A study of Triticum aestivum with 10 samples.

Results

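In anthers of the wheat line BS366, 8 of the 61179 probe sets screened on the array had a higher signal in every cold-treated sample than in any untreated one, with a clear gap between the treatments and a steady level in the untreated anthers. A probe set is a group of short oligonucleotides on the array that together measure a transcript, and its signal is a brightness on a linear scale. The 8 were chosen by these signals: after signals were raised to a floor of 20, the lowest of the 5 sterile signals had to be at least 60 and at least 1.5 times the highest of the 5 fertile signals, and the highest fertile signal had to be at most 3 times the lowest fertile signal. Their differences between the treatments are therefore given as a description, without a test. The order of the samples along anther length within a treatment was not used in the choice.

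BS366 is a thermosensitive genic male sterile (TGMS) line, a line whose pollen fails when the plants meet low temperature around meiosis and is fertile in warmth. Sterile anthers came from plants held at 10 °C for 5 days, and fertile anthers from plants kept at 20 °C throughout, both with a 12 h photoperiod after natural vernalization in the field. Each treatment was sampled once at 5 anther lengths, namely 1.5 mm, then 2.0, 2.2 and 2.5 mm, and last 3.0 mm, which makes 10 arrays. Every sample is labelled as meiosis stage. By morphology, however, the paper on these data places the end of mitosis and the passage to meiosis I at 2.2 mm. Since there is 1 array per treatment and length, the 5 lengths stand in for replicates, and the sources used here do not say whether different plants supplied them. All samples are of the same line, so the low temperature and the male sterility that follows it cannot be told apart. The treatments are matched by anther length only, and whether anthers of the same length were at the same stage was not tested.

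The anther is the pollen-bearing organ of the flower. Inside it the pollen mother cells pass through meiosis while the tapetum, the innermost layer of the anther wall, feeds them and later supplies material for the pollen wall. Plants that meet low temperature are known to alter a wide range of transcripts, among them those of dehydrins, of the CBF/DREB transcription factors and of cold shock domain proteins, and the wheat genome carries 3 subgenomes, so that close copies of a gene may be read by the same probes. The array names its probe sets by sequence clusters: IDs that begin with Ta refer to UniGene clusters, and those that begin with TaAffx to clusters built by the manufacturer. The ending _at marks probes meant to be unique, _s_at probes shared by several transcripts, _x_at probes that may cross-hybridize and _a_at probes shared by alternative transcripts of 1 gene.

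The 8 probe sets belonged to 7 clusters, since Ta.6665.1.S1_at and Ta.6665.1.S1_x_at come from the same one. The annotation paired none of the 8 with a gene. It named one for 1273 probe sets and left 97.9% of those screened without one. They are therefore given by probe set ID, with no gene name and no role. Of the 8, 5 ended in _at, 2 in _s_at and 1 in _x_at, against 69.7%, 6.08% and 14.7% of the 30590 probe sets bright enough for testing. All 8 were among those tested, and their mean sterile signals lay between the percentiles 85.2 and 99.6 of the probe sets screened.

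The arrays had mean signals of 118.3 to 121.6 in the sterile and 117.7 to 125.5 in the fertile series. At 5 of 5 lengths the sterile array had more signal from the 18S rRNA control, with 32.3 to 2833 on the sterile arrays and 2.22 to 314.9 on the fertile ones, and 4 of the 5 fertile signals lay under the floor of 20. The ratio of the 3′ to the 5′ ubiquitin control was 0.578 to 0.694 on the sterile and 0.421 to 0.616 on the fertile arrays. The fertile 3.0-mm array had a mean correlation across probe sets of 0.786 with the others, the lowest of the 10, and the hybridization controls stood at 613.7 on the fertile 2.2-mm array. Of the cell type markers, the 4 tapetum probe sets had a summed signal of 1826 to 9189 in the sterile and 5494 to 19133 in the fertile series. They carry only 2 gene names (raftin1a and raftin1b), and 3 of 4 were called lower (0.18% of the tested probe sets were). By RT-PCR, the paper reports TaRAFTIN1A lower in sterile BS366 anthers. From a correlation in the array data and from promoter methylation, it proposes that the methyltransferase TaMET1-B1 might negatively regulate this gene. The 6 probe sets of photosynthetic cells had sums of 2080 to 5507 in the sterile and 3044 to 9578 in the fertile series, with 1 of 5 tested called lower. None of these calls held without the 1.5-, 2.2- or 2.5-mm pair or with dim probe sets kept, where the fit made 0 calls in all. No probe set carried the name of a meiotic marker, so the labelled stage could not be checked by such genes. The 4 probe sets of seed tissue, 2 of them tested, had sums of 82.4 to 151.3 in sterile and 141.6 to 370.4 in fertile anthers. The lower sterile sums came mostly from the GLU1A probe set, with a mean log2 difference of -1.34. The abu-7 probe sets had -0.20, 0.08 and 0.19, with signals of at most 48.0. The part of these shifts in the differences given here was not tested, and in whole anthers more cells of a type cannot be told apart from more RNA per cell.

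Across the 8 probe sets, the mean log2 difference over the 5 lengths, sterile minus fertile, had a median of 1.40 (2.64-fold) and ran from 1.28 to 2.24, against a median of -0.02 over all probe sets tested. These values are fixed in direction by the choice, which also requires at least 1.5-fold at each length. For comparison, 1.61% of the tested probe sets had all 5 sterile signals above all 5 fertile signals, and 8.87% were higher in sterile anthers at 5 of 5 lengths, 2 things that the choice requires of all 8 members. The limma fit over all tested probe sets, with anther length as a block, called 0.0686% of them higher in sterile anthers (21 of 30590) and 5 of the 8, and nothing is read from that count of members because the same contrast chose the members.

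**Figure D1:**
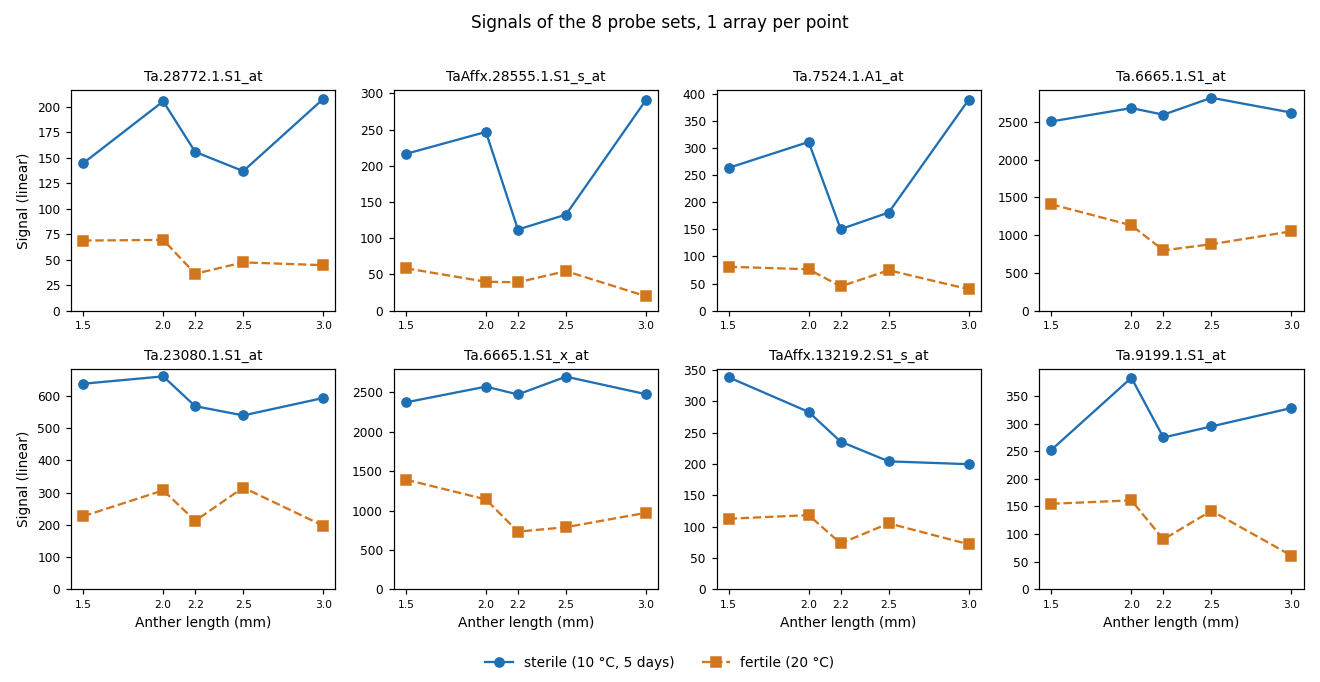
Linear signals (y axis, from 0) of the 8 probe sets on the 10 arrays against anther length in mm, with sterile arrays as circles on solid lines and fertile arrays as squares on dashed lines, 1 array per point. In every panel the lowest sterile signal is at least 1.57 times the highest fertile one.

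Ta.28772.1.S1_at had the highest ratio of the lowest sterile to the highest fertile signal among the 8, although its mean fold was the third largest. Its signals were, in order of length, 144.7, 205.5, 155.8, 137.0 and 207.9 in sterile anthers of 1.5 to 3.0 mm, against 68.7, 69.4, 36.1, 47.3 and 44.6 in fertile anthers of the same lengths. The sterile signals were high at 2.0 and 3.0 mm and the fertile ones at 1.5 and 2.0 mm, and the lowest sterile signal was 1.97 times the highest fertile one. The mean log2 difference was 1.70 ± 0.47 (SD, n = 5 lengths), or 3.25-fold. The difference was smallest at 1.5 mm (2.10-fold) and largest at 3.0 mm (4.67-fold).

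TaAffx.28555.1.S1_s_at and Ta.7524.1.A1_at had the largest mean differences of the 8 and the most uneven sterile levels. TaAffx.28555.1.S1_s_at gave 216.5, 246.9, 112.0, 132.6 and 291.1 in sterile anthers of 1.5 to 3.0 mm, against 58.4, 39.8, 39.1, 54.5 and 19.8 in fertile anthers. Its mean log2 difference was 2.24 ± 1.05 (SD, n = 5 lengths), and the fold ran from 2.43 at 2.5 mm to 14.7 at 3.0 mm. The 14.7-fold value pairs its highest sterile signal with its lowest fertile one, and that fertile signal lay just under the floor of 20 used by the choice.

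Ta.7524.1.A1_at gave 264.0, 312.0, 150.6, 181.4 and 390.4 in sterile anthers of 1.5 to 3.0 mm, against 81.0, 76.4, 44.7, 74.6 and 39.4 in fertile anthers. Its mean log2 difference was 2.02 ± 0.77 (SD, n = 5 lengths), with folds of 2.43 at 2.5 mm and 9.90 at 3.0 mm. In both probe sets the sterile signals at 2.2 and 2.5 mm were low and those at 2.0 and 3.0 mm high, and the highest sterile signal was 2.60 and 2.59 times the lowest, while no other of the 8 exceeded 1.69 times.

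The 2 probe sets of cluster Ta.6665 were the brightest of the 8 and the most even over the sterile arrays. Ta.6665.1.S1_at had 2508, 2685, 2597, 2822 and 2625 in sterile anthers of 1.5 to 3.0 mm, against 1409, 1130, 798.0, 879.4 and 1050 in fertile anthers. Ta.6665.1.S1_x_at had 2374, 2574, 2474, 2700 and 2477 in sterile anthers, against 1393, 1141, 732.2, 788.6 and 971.5 in fertile anthers. The sterile signals varied by 1.13-fold and 1.14-fold over the lengths, and the fertile ones were highest at 1.5 mm and lowest at 2.2 mm in both. Since the 2 probe sets are built on the same sequence, they are not separate evidence. The mean log2 differences were 1.36 ± 0.36 and 1.37 ± 0.42 (SD, n = 5 lengths each).

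Ta.23080.1.S1_at was likewise even in sterile anthers, with 637.1, 660.0, 567.5, 538.9 and 592.9 at 1.5 to 3.0 mm, against 226.3, 306.7, 212.3, 315.3 and 196.9 in fertile anthers. Its fertile signals were highest at 2.0 and 2.5 mm, and its difference was smallest at 2.5 mm (1.71-fold). The mean log2 difference was 1.28 ± 0.33 (SD, n = 5 lengths), the lowest of the 8.

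TaAffx.13219.2.S1_s_at was the only one of the 8 whose sterile signal fell at every step of length. It had 338.2, 282.9, 235.5, 204.1 and 199.6 in sterile anthers of 1.5 to 3.0 mm, against 112.6, 118.3, 73.2, 105.1 and 71.8 in fertile anthers. The fertile signals moved up and down between lengths but also ended below their start, and the mean log2 difference was 1.39 ± 0.29 (SD, n = 5 lengths), the smallest SD of the 8.

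Ta.9199.1.S1_at lay closest to the threshold. It had 252.5, 383.2, 275.0, 295.1 and 328.4 in sterile anthers of 1.5 to 3.0 mm, against 154.9, 161.1, 90.4, 142.3 and 60.9 in fertile anthers. Its lowest sterile signal, at 1.5 mm, was 1.57 times its highest fertile one, at 2.0 mm. The mean log2 difference was 1.41 ± 0.66 (SD, n = 5 lengths), with 1.63-fold at 1.5 mm and 5.40-fold at 3.0 mm.

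The gap that defined the members was rare at any setting. Of 12927 probe sets with a lowest sterile signal of at least 60 and a fertile range of at most 3-fold, the median ratio of the lowest sterile to the highest fertile signal was 0.679. The ratio exceeded 1 in 406 of them, reached 1.1 in 107, 1.5 in 8 and 2 in 0. With the treatments exchanged and the fertile range still limited, the ratio of the lowest fertile to the highest sterile signal exceeded 1 in 302, and reached 1.1 in 104, 1.5 in 6 and 2 in 1.

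**Figure D2:**
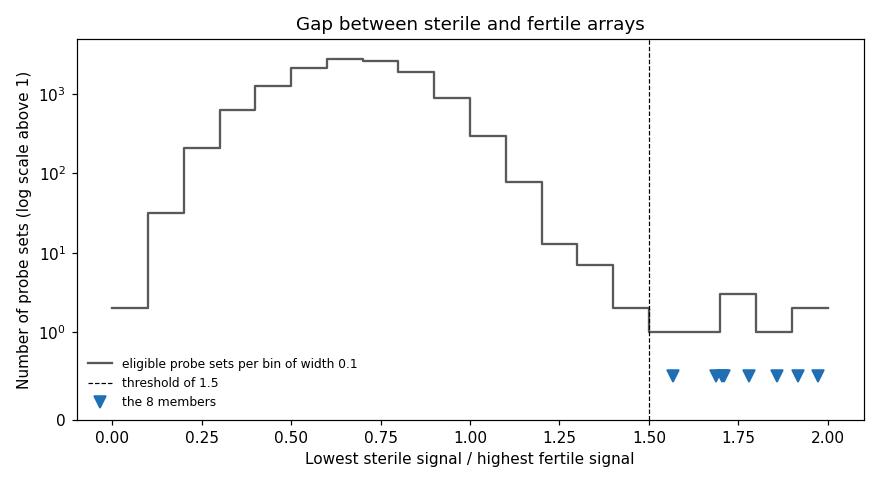
Number of eligible probe sets (y axis, log scale above 1) by the ratio of their lowest sterile to their highest fertile signal (x axis, bins of 0.1), with the 8 members as triangles placed by ratio only. The counts fall from 299 between 1.0 and 1.1 to 2 between 1.4 and 1.5, and the members lie between 1.57 and 1.97.

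Just inside the threshold on the ratio lay Ta.9199.1.S1_at (1.57), TaAffx.13219.2.S1_s_at (1.69) and Ta.6665.1.S1_x_at (1.70), and just outside TaAffx.63995.1.A1_at (1.43), TaAffx.11960.1.S1_at (1.41) and TaAffx.119260.1.S1_at (1.38). On the fertile range, TaAffx.28555.1.S1_s_at (2.92) lay closest inside, and 1 probe set missed by that condition alone. This was TaAffx.16307.1.S1_at, with 858.2, 892.7, 732.1, 695.6 and 628.0 in sterile anthers of 1.5 to 3.0 mm, against 324.8, 235.7, 49.8, 56.6 and 15.6 in fertile anthers. Its fertile signal declined steeply with length while its sterile signal stayed high, and its fertile signal at 3.0 mm lay under the floor of 20. Ta.10586.1.S1_at missed by its lowest sterile signal alone (42.2, with a ratio of 1.63).

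The difference varied with anther length among the 8. The members' median fold, sterile over fertile, was 2.43 in anthers of 1.5 mm, 2.38 in those of 2.0 mm, 3.24 in those of 2.2 mm, 2.43 in those of 2.5 mm and 3.75 in those of 3.0 mm. Over all probe sets tested, the median log2 difference was -0.01, -0.13, 0.17, -0.06 and -0.01 at these lengths. The fold was largest at 3.0 mm in 5 members, at 2.2 mm in 2 and at 2.5 mm in 1, and smallest at 1.5 mm in 4 and at 2.5 mm in 4. The lengths with large folds were also those of low fertile signals: the lowest fertile signal was at 3.0 mm in 5 members and at 2.2 mm in 3, against 25.9% and 33.8% of the tested probe sets. Of those 2 fertile arrays, the 3.0-mm one had the lowest mean correlation with the others, and the 2.2-mm one stood apart by its hybridization controls. The part of either array in the folds was not tested. A single length has no replicate, so these differences between lengths were not tested.

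**Figure D3:**
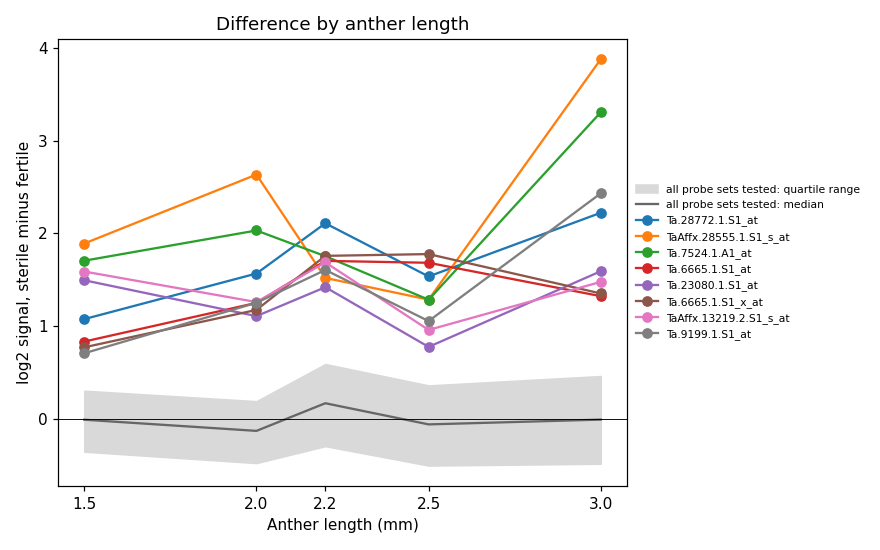
Log2 signal, sterile minus fertile (y axis), against anther length in mm (x axis) for the 8 probe sets (coloured lines), with the median (grey line) and the quartile range (grey band) of the 30590 probe sets tested. Every member lies above the band at every length. The choice requires at least 1.5-fold at each length, so this position is nearly fixed by it. TaAffx.28555.1.S1_s_at and Ta.7524.1.A1_at stand highest at 3.0 mm.

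Whether the members changed with anther length within the cold treatment was tested as a slope over the 5 sterile arrays, in log2 units per mm. The limma fit called 0.964% of the tested probe sets (295 of 30590) and 0 of the 8 members. The choice set a lower limit on all 5 sterile signals, so it bore on how far a member could fall with length. At that share, 8 members are too few for their count to be read. At an unadjusted p under 0.05 the counts were 5612 of the tested probe sets and 1 of the 8. That one was TaAffx.13219.2.S1_s_at, with a slope of -0.55 (standard error 0.14, adjusted p = 0.101 from limma). A fall at every step of length, as it showed, was found in 2.57% of the tested probe sets. For the other 7 the slopes were between -0.12 and 0.21, with adjusted p of 0.678 to 0.921 from limma. The widest standard error, 0.39 for TaAffx.28555.1.S1_s_at, belongs to a profile that went down and up again, which a line cannot describe. The members' median slope was 0.08, against -0.01 over all tested probe sets, and it was -0.17 without the sterile 3.0-mm array and -0.01 without the 1.5-mm array.

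In the fertile series the slope was below 0 in 8 of 8 members, with a median of -0.44 log2 units per mm and a range of -0.85 to -0.10. Among the tested probe sets, 52.8% had a fertile slope below 0 and the median was -0.03. In the sterile series 2 of 8 slopes were below 0, against 51.8% of the tested probe sets. The fertile slopes are a description, since the choice limited the fertile range, and the difference between the 2 series was not tested.

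Within the sterile series, Ta.7524.1.A1_at and TaAffx.28555.1.S1_s_at followed the same course, although they are named from different clusters. Relative to the mean of its own sterile arrays, Ta.7524.1.A1_at stood, in order of length, at 1.02, 1.20, 0.580, 0.699 and 1.50. TaAffx.28555.1.S1_s_at stood at 1.08, 1.24, 0.560, 0.664 and 1.46. Both thus ranked the lengths as 3.0, 2.0, 1.5, 2.5 and 2.2 mm from the highest to the lowest. The probe sets Ta.7524.2.A1_a_at and Ta.7524.2.A1_x_at, from the same cluster as Ta.7524.1.A1_at, had this order as well.

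That order was found in 167 of the tested probe sets (0.546%), and in 35 whose highest sterile signal was at least 2 times the lowest. Of these 35, 4 (11.4%) were also higher in sterile anthers at 5 of 5 lengths, a share near the 8.87% of all tested probe sets. These were the 4 named here, and for the 2 members among them the choice required it. This order was chosen for comparison after the values had been seen. Whether these probe sets share probes or transcripts was not tested, since no probe sequences were used here.

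**Figure D4:**
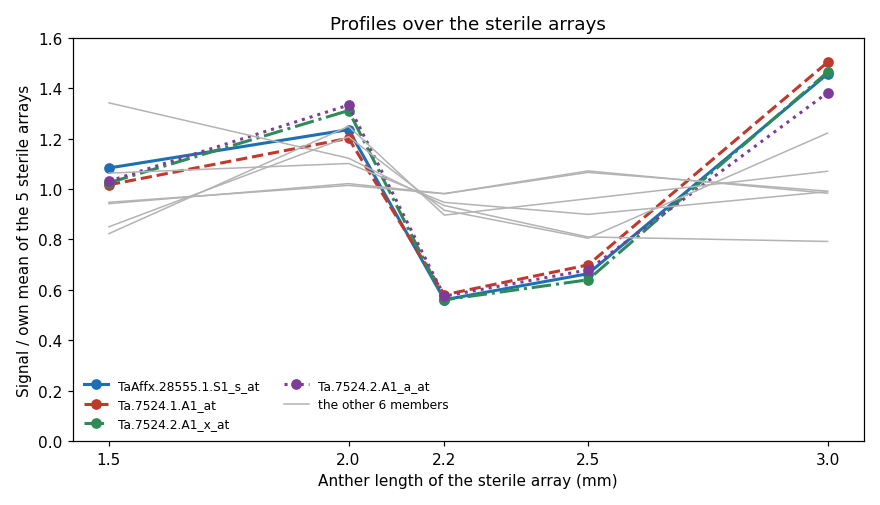
Signal on each sterile array divided by the probe set's own mean over the 5 sterile arrays (y axis) against anther length in mm (x axis). The 4 coloured lines, Ta.7524.1.A1_at, TaAffx.28555.1.S1_s_at and the 2 probe sets of Ta.7524.2, dip to between 0.560 and 0.699 at 2.2 and 2.5 mm, and grey lines are the other 6 members.

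Other probe sets of the members' clusters gave a further reading that the choice had not used. Of the 7 clusters, 4 had other probe sets on the array, 8 in all. Of these 8, 2 were too dim to be tested, with no signal above 23.5. Among those tested, 3 were higher in sterile anthers at 5 of 5 lengths and 2 were lower at 5 of 5 lengths, against 8.87% and 8.57% of all tested probe sets. Of the 3 higher ones, Ta.7524.2.A1_a_at and Ta.7524.2.A1_x_at have the same number in their IDs (7524.2), so they are not separate evidence. The same holds for the 2 lower ones (6665.3). Whether any of the 8 share probes or transcripts with the members was not tested. The last of those tested, TaAffx.28555.1.S1_at, had signals of 19.2 to 33.6 in sterile and 10.3 to 28.0 in fertile anthers and was higher at 3 of 5 lengths. Its ID has the same number, 28555.1, as the member TaAffx.28555.1.S1_s_at, whose sterile signals were 112.0 to 291.1. TaAffx.13219.2.S1_at, 1 of the 2 dim ones, has the same number as the member TaAffx.13219.2.S1_s_at and no signal above 16.0. In both pairs the _at probe set thus did not repeat the clear gap of the _s_at one.

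Ta.7524.2.A1_a_at had signals of 399.3, 516.3, 222.5, 262.9 and 535.3 in sterile anthers of 1.5 to 3.0 mm, against 144.8, 130.6, 90.1, 167.5 and 201.8 in fertile anthers. Its mean log2 difference was 1.36 ± 0.48 (SD, n = 5 lengths), and that of Ta.7524.2.A1_x_at was 1.55 ± 0.87. The lowest sterile signals of these probe sets were 1.10 and 1.19 times their highest fertile ones, so the treatments did not overlap but the gap was under 1.5. Neither passed the treatment test.

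TaAffx.13219.1.S1_at, of the same cluster as TaAffx.13219.2.S1_s_at, had 158.9, 116.4, 88.2, 118.0 and 99.0 in sterile anthers, against 62.2, 74.4, 33.1, 40.4 and 30.4 in fertile anthers. Its mean log2 difference was 1.33 ± 0.41 (SD, n = 5 lengths), with no overlap, and it did not pass the treatment test. Its sterile slope was -0.39 (standard error 0.21, adjusted p = 0.369 from limma), and its signal did not fall at every step.

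Cluster Ta.6665 held probe sets that differed in opposite directions. Ta.6665.3.S1_at had 166.8, 201.0, 234.2, 120.2 and 126.0 in sterile anthers of 1.5 to 3.0 mm, against 495.5, 429.8, 386.5, 513.9 and 524.5 in fertile anthers. Every sterile signal lay below every fertile one, and the lowest fertile signal was 1.65 times the highest sterile one, so it was among the 6 probe sets that met the condition with the treatments exchanged. Its mean log2 difference was -1.51 ± 0.60 (SD, n = 5 lengths).

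Ta.6665.3.S1_x_at had 237.6, 252.0, 346.9, 185.9 and 202.8 in sterile anthers, against 730.9, 593.4, 502.1, 664.8 and 750.4 in fertile anthers, with a mean log2 difference of -1.42 ± 0.56 (SD, n = 5 lengths). Neither of the 2 passed the treatment test. Within the sterile series both were highest at 2.2 mm, where the fold below the fertile array was least. The members Ta.6665.1.S1_at and Ta.6665.1.S1_x_at, by contrast, stood at 2374 or more on every sterile array and at 1409 or less on every fertile one.

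Of 4935 clusters with more than 1 tested probe set, 425 (8.61%) had at least 1 probe set whose treatments did not overlap. Ta.6665 was the only cluster among the 4935 with such a probe set in each direction. The comparison was made after the values had been seen and has no test. The annotation gave no gene for any of its probe sets.

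**Figure D5:**
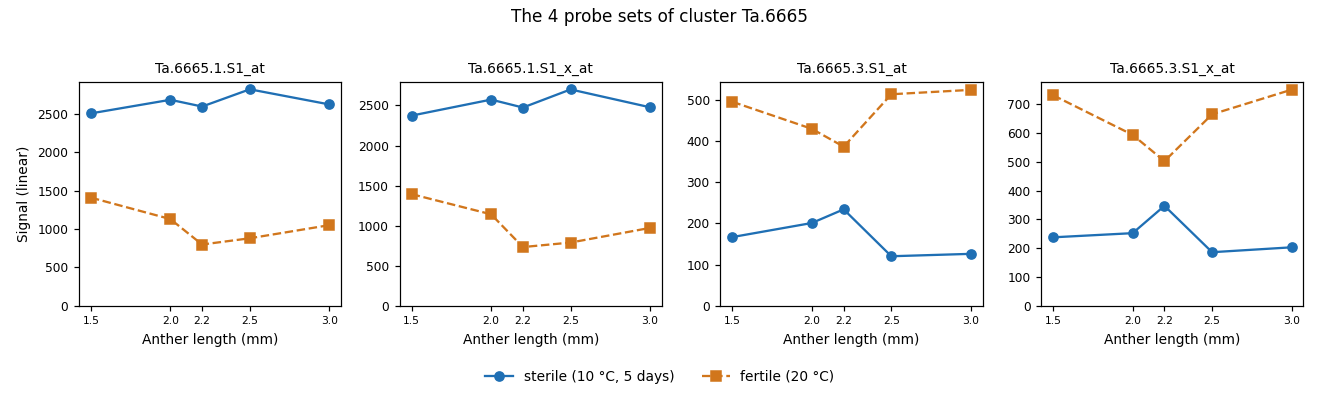
Linear signals (y axis, from 0, with a scale of its own in each panel) of the 4 probe sets of cluster Ta.6665 against anther length in mm, with sterile arrays as circles on solid lines and fertile arrays as squares on dashed lines. Sterile signals lie above the fertile ones at 5 of 5 lengths in the 2 left panels (Ta.6665.1) and below them at 5 of 5 lengths in the 2 right panels (Ta.6665.3).

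Known cold-response genes could hardly be set beside these members. Of the cold and dehydration list, the annotation named 2 probe sets, those of COR410, a dehydrin, and of LEA, a late embryogenesis abundant protein. Both were too dim to be tested, with summed signals of 12.2 to 21.6 in sterile and 13.1 to 24.9 in fertile anthers. The single chaperone, the small heat shock protein hsp16.9A, was also too dim, with 1.14 to 15.6 in sterile and 5.21 to 20.8 in fertile anthers. Of the 20 tested probe sets of histones and chromatin, which carry 6 gene names, 16 were higher in sterile anthers at 5 of 5 lengths (8.87% of all tested probe sets were). Their median log2 difference was 0.69, the treatment fit called 0 of the 20, and none met the condition that chose the 8. The fold was uneven over the lengths in some. For H2A-2 it was 0.880 at 1.5 mm and 9.58 at 3.0 mm. Its fertile signal was 1231 and 71.5 at these lengths, and its sterile signal 1084 and 685. For wcH2B-6 the folds were 1.50 and 1.57 at 1.5 mm, and 1.60 and 1.78 at 3.0 mm. The part of the fertile 3.0-mm array, which had the lowest correlation with the others, was not tested.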

How the data were processed

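The 10 arrays were Affymetrix Wheat Genome Arrays hybridized with biotin-labelled cRNA from total RNA of BS366 anthers. The authors deposited MAS5 signals, intensities on a linear scale (0.0167 to 8641), for 61290 probe sets, and the sources used here do not give the MAS5 version. The columns of all 10 arrays were matched to a sample by name. The 111 control probe sets were left out. For the fits, signals were raised to at least the table's 20th percentile (4.05), log2 was taken, and probe sets at or above the median mean log2 were kept (30590). limma 3.58.1 in R 4.3.3 (lmFit, eBayes with trend, Benjamini-Hochberg at 0.05) was used for the treatment, with anther length as a block (4 residual degrees of freedom), and for the slope over the 5 sterile arrays (3 residual degrees of freedom). For the treatment, the p-values weigh a difference against its variation between lengths. For the slope, they weigh it against the scatter around a line. Neither is a spread between replicates, and either may hold technical differences or real changes with length. Both fits were tested on simulated data with independent noise and no array standing apart, so those runs do not show how the fits behave on these arrays. Precision is limited by the number of arrays.

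The members, gene lists and markers (tapetum, meiotic, photosynthetic, seed) were chosen with earlier results of these data known. Of the gene lists, only cold and dehydration, chaperones and histones are described above. The others were tubulins, redox, translation, lipid and wax, sugar and starch, defence, RNA binding and splicing, and transcription factors. The last 2 matched 0 probe sets. The rest had median log2 differences from -2.60 (lipid and wax, 1 probe set tested) to 0.34 (tubulins). All members, the probe sets nearest to each threshold, up to 4 others of the same clusters and up to 4 genes per list were to be named. TaAffx.28555.1.S1_at and Ta.6665.3.S1_x_at were added after their values were seen. Alternatives were quantile normalization, median centring, other floors and thresholds, no filter, no block, no trend, other codings of length, and each length left out. Sequences and coordinates were not used here.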

Additional observations from a re-analysis of the deposited data

Results flagged for a closer look

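The control probe sets showed 2 samples far from the rest of their group. The mean log2 signal of the hybridization controls on the fertile 2.2-mm array was 9.26, and its gap to the nearest fertile array took 0.771 of the group's range. The log2 signal of the 18S rRNA control on the fertile 1.5-mm array was 8.30, with a gap of 0.712 of the range. In all, 32 groups of 5 arrays were screened, and chance alone marks about 1 in 20. Among the 8 probe sets themselves no group of 5 arrays held such a sample. Without the fertile 2.2-mm array the number of members stayed at 8.

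The 18S rRNA control, which is outside the main measurement, was higher on the sterile than on the fertile array at 5 of 5 lengths, with a lowest ratio of 5.71 as deposited. The fertile signals at 2.0 to 3.0 mm lay under 20, so this ratio rests on background-level signals, and with signals raised to 20 the lowest ratio was 1.61, at 3.0 mm. The part of this difference in the members' values was not tested.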

How the results depend on the processing

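The number of members was 8 with a floor at the 20th percentile or a lowest sterile signal of 100, 9 without the limit on the fertile range, 10 with median centring and 12 with quantile normalization, and all 8 were among them. It was 19 with the ratio threshold midway between 1 and 1.5, and 0 with it at 2. With 1 length left out it ran from 8 to 19 (19 without 1.5 mm, 17 without 2.0 mm and 13 without 3.0 mm), as fewer arrays had to meet the condition. Without the fertile 2.2-mm or 3.0-mm array alone, chosen after seeing the data, it was 8 and 9. The members' median log2 difference ran from 1.34 to 1.55. The count of treatment calls was 76, but 33 with median centring, 0 with dim probe sets kept and 2 with no intensity trend, and 0 to 598 with 1 length left out (0 without 1.5, 2.2 or 2.5 mm, 1 without 2.0 mm and 598 without 3.0 mm). Without the replicate block (anther length), 9 probe sets were called, 4 of them members. The count of slope calls was 295, but 0 with a floor of 20, without the filter, without the trend and for 2.2 to 3.0 mm against 1.5 and 2.0 mm, and 0 to 514 with 1 sterile array left out. No member was called for a slope in any of these settings. The members' median slope ran from -0.17 to 0.14 with 1 sterile array left out, and the slope of TaAffx.13219.2.S1_s_at from -0.74 to -0.47 log2 units per mm over 10 settings, with adjusted p of 0.0928 to 0.470 from limma, and 0.0809 with the order of the lengths in place of mm. The causes were not tested. Dim probe sets and single arrays per length limit what can be seen.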
